A study of Homo sapiens with 8 samples.

Results

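The transcripts described here encode the enzymes that make serine and pass its carbon to folate, with emphasis on the enzymes that work in the mitochondrion. They are 10 listed genes (PHGDH, PSAT1, PSPH, SHMT1, SHMT2, MTHFD1, MTHFD2, MTHFD1L, ALDH1L2 and PCK2) of the 57500 Ensembl genes in the deposited count table, matched by their symbols. PHGDH, PSAT1 and PSPH convert the glycolytic intermediate 3-phosphoglycerate to serine in successive steps. SHMT2 in the mitochondrion and SHMT1 in the cytosol split serine into glycine and a carbon unit that is carried by tetrahydrofolate. In the mitochondrion, MTHFD2 oxidizes this unit, after which MTHFD1L releases it as formate or ALDH1L2 oxidizes it to carbon dioxide with formation of NADPH. MTHFD1 takes up formate in the cytosol for purine and thymidylate synthesis and for the remethylation of homocysteine, the branch that meets the methionine cycle. PCK2, the mitochondrial phosphoenolpyruvate carboxykinase, can feed 3-phosphoglycerate from below. PHGDH, PSAT1, SHMT2, MTHFD2, ALDH1L2 and PCK2 are known targets of the transcription factor ATF4, which responds to amino acid shortage.

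The cells were HEK293T, an established human embryonic kidney line with large T antigen of SV40. In the DZNep group, 4 libraries came from cells given 100 µM DZNep for 48 h, and in the Control group 4 libraries came from cells given vehicle for the same time. DZNep (3-deazaneplanocin A), which resembles adenosine, blocks AHCY, the enzyme that removes S-adenosylhomocysteine. The growth medium is DMEM per the labels and RPMI per the methods. The study's methods give no clone, and with a line in bulk culture, fewer cells of a kind and less RNA per cell cannot be told apart. The study calls the libraries biological replicates, while the labels do not say whether numbered libraries came from separate cultures, so p-values measure only the spread between these samples.

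Library totals ranged from 25043058 counts in Control replicate 1 to 44902779 in DZNep replicate 2. Mitochondrially encoded transcripts took 7.04% to 13.7% of the counts in the libraries numbered 1 and 4 and 3.02% to 4.44% in those numbered 2 and 3, in both groups. All 7 HEK293 markers on a list, among them PAX2, EYA1 and NEFM, had counts in every library. Their summed level was 23877 to 50007 normalized counts in the Control and 31489 to 44672 in the DZNep libraries. VIM alone gave 18481 to 35819 and 23594 to 30854 of these, so the sums mostly reflect VIM. The 8 markers of blood, liver, fibroblast and endothelial cells summed to 1231 to 2724 in the Control and 287 to 2213 in the DZNep libraries. Within these lists, KRT8 was higher with DZNep (1484 to 2440.1, against 216 to 521 in the Control) and LHX1 was lower (163 to 226, against 307 to 866). PAX2 was lower too (207 to 291, against 313 to 385), and EYA1 was higher (255 to 348, against 134 to 193). KRT18 was mostly higher, with a small overlap (3268 to 5798, against 1533 to 3309). CDH5 rose from at most 3.08 to between 11.8 and 19.1, CD3E was at 0 in each Control library and at 8.16 to 40.5 with DZNep, and COL1A2 was as low as 15.3 in a DZNep library against 898 or more in the Control. Their part in the results was not tested. A normalized count is a count divided by the size factor of its library.

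All 10 genes passed the filter on low counts, with at least 421 counts in each library (the lowest was ALDH1L2). DZNep lowered 3 of the 10 transcripts and raised 0 past both thresholds. These asked for an adjusted p below 0.05 in the quasi-likelihood test of edgeR and for a change beyond 1 on the log2 scale in either direction. The genes lowered were ALDH1L2 (log2 fold change -2.84), PCK2 (-2.80) and MTHFD1 (-1.14). Of all 19171 genes tested, 13.5% were lower and 10.6% were higher by this rule. The 10 genes were chosen with earlier results of these data known, so shares of all genes are given for description only. At the threshold on the adjusted p-value alone, PSPH (-0.61) and PSAT1 (-0.59) were lower too, which makes 5 of 10 genes, where 21.8% of all genes were lower and 19.1% higher. With the replicate number as a block SHMT1 was added, which makes 6 of 10, and the background was 30.2% lower and 28.8% higher. MTHFD1L alone had a positive estimate (0.14), and 0 members were higher in edgeR before adjustment of the p-values at the same threshold. By DESeq2 and by limma, 0 members were higher past both thresholds. All 4 DZNep libraries lay below all 4 Control libraries for 5 of the 10 genes, a pattern found in 19.4% of all genes. The median log2 fold change was -0.45 over the 10 genes and -0.026 over all genes tested.

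**Figure D1:**
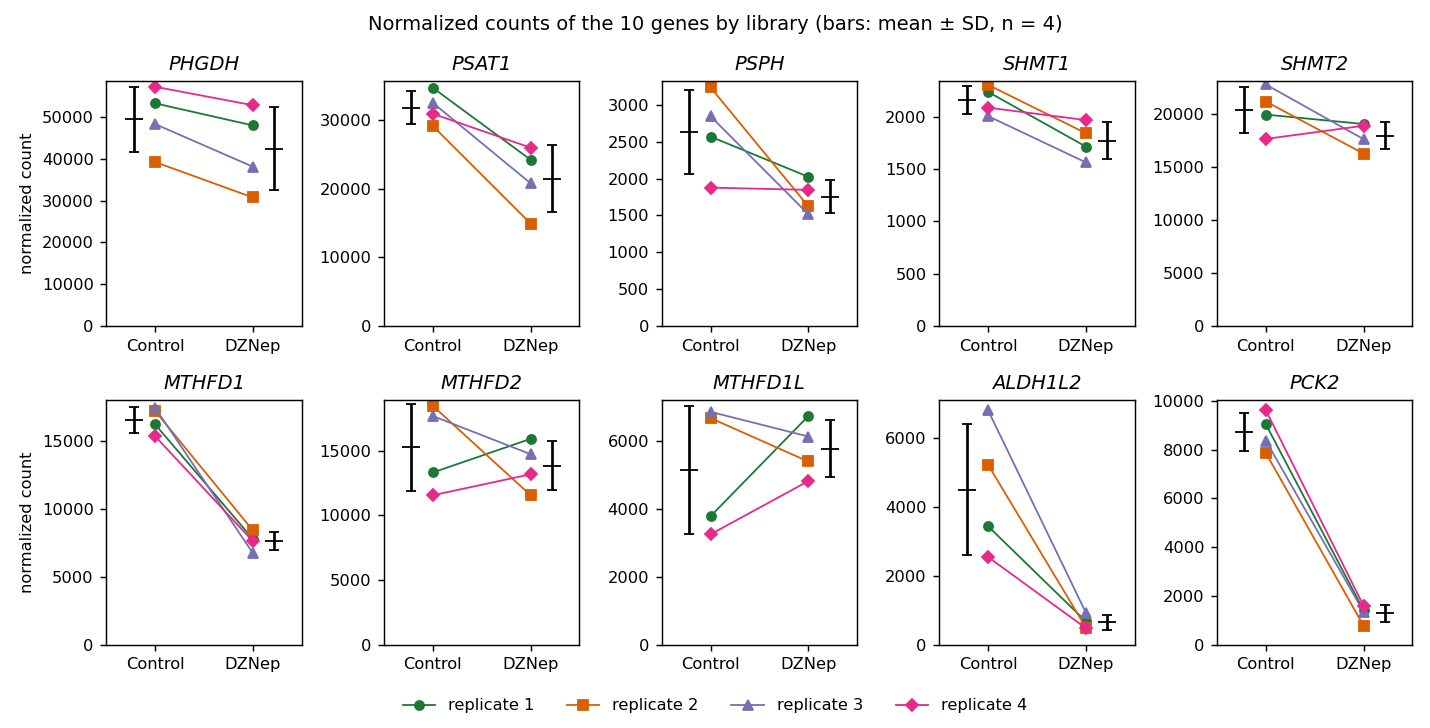
Normalized counts (linear axis from 0) of each gene in Control and DZNep libraries, with a line joining libraries of the same replicate number and bars for the mean and SD of 4 libraries. In ALDH1L2, PCK2 and MTHFD1 all 4 lines drop by more than 1 log2 unit, whereas in MTHFD2 and MTHFD1L the lines of replicates 1 and 4 go up and those of replicates 2 and 3 go down.

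PCK2 (ENSG00000100889, chromosome 14 of GRCh38 from 24094053 to 24110598) fell strongly in every replicate number. The Control libraries 1 to 4 held 9039.9, 7859, 8370.2 and 9613 normalized counts, and the DZNep libraries held 1404, 770.0, 1339 and 1589.6. The highest DZNep library was far below the lowest Control library, and DZNep replicate 2 was lower than the other DZNep libraries. The mean fell from 8721 ± 767 to 1276 ± 353 (SD, n = 4 each), or to 14.6% of the Control. On the log2 scale this was -2.80 ± 0.23 (SE; edgeR, adjusted p = 1.94e-05). By replicate number, the log2 ratios were -2.69, -3.35, -2.64 and -2.60.

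ALDH1L2 (ENSG00000136010, chromosome 12 from 105019784 to 105107643), which encodes the mitochondrial 10-formyltetrahydrofolate dehydrogenase, fell 7.15-fold, from a Control level that varied more between libraries than that of PCK2. Its Control libraries held 3430.1, 5212, 6793 and 2538 normalized counts, a 2.68-fold range. The DZNep libraries held 670.2, 489.7, 922 and 474, and the groups did not overlap. The mean fell from 4493 ± 1894 to 639 ± 209 (SD, n = 4 each). edgeR gave -2.84 ± 0.34 (log2, SE) with an adjusted p of 0.000156. The decrease was largest in replicates 2 and 3, whose Control libraries were highest, with log2 ratios of -3.41 and -2.88 against -2.36 and -2.42 in replicates 1 and 4.

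MTHFD1 (ENSG00000100714, chromosome 14 from 64388031 to 64463457), the cytosolic trifunctional enzyme, fell by 2.21-fold with little spread. Its Control libraries held 16222, 17212, 17444 and 15353 normalized counts and its DZNep libraries 7777, 8408, 6729.9 and 7609. The groups were well separated, and the coefficient of variation of the Control libraries, 5.81%, was the lowest of the 10 genes. The mean went from 16558 ± 962 to 7631 ± 692 (SD, n = 4 each), or -1.14 ± 0.14 (SE) on the log2 scale (edgeR, adjusted p = 0.000174). Each replicate number gave a log2 ratio below -1, between -1.37 and -1.01.

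SHMT1 (ENSG00000176974, chromosome 17 from 18327860 to 18363563), the cytosolic serine hydroxymethyltransferase, differed by less. The Control libraries held 2235, 2302, 2004 and 2085 normalized counts and the DZNep libraries 1713, 1841, 1562 and 1966. The groups did not overlap, but the margin was small. The difference was -0.31 ± 0.13 (SE) on the log2 scale, with an adjusted p of 0.0791 in edgeR and of 0.0252 once replicate number entered the fit as a block. This was the only one of the 10 genes whose side of the threshold on the adjusted p-value depended on the block.

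Among the serine synthesis genes, PSAT1 and PSPH had lower transcript levels in the DZNep-treated cells, by less than 2-fold, and PHGDH did not pass the threshold. PSAT1 (ENSG00000135069, chromosome 9 from 78297125 to 78330093), the phosphoserine aminotransferase, had 34735, 29172, 32547 and 30954 normalized counts in the Control libraries and 24249, 14936, 20813 and 26012 in the DZNep libraries. The groups did not overlap, and DZNep replicate 2 was the lowest library. The mean went from 31852 ± 2366 to 21503 ± 4881 (SD, n = 4 each), or -0.59 ± 0.19 (SE) on the log2 scale (edgeR, adjusted p = 0.0322). This p-value was larger, between 0.0584 and 0.0792, when Control replicate 1, Control replicate 3 or DZNep replicate 1, 2 or 3 was left out, while the log2 fold change stayed between -0.69 and -0.45.

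PSPH (ENSG00000146733, chromosome 7 from 56011051 to 56051604), the phosphoserine phosphatase, had 2569.8, 3238, 2846 and 1878 normalized counts in the Control libraries and 2025, 1625, 1518 and 1847 in the DZNep libraries. The groups touched, since Control replicate 4 lay below DZNep replicate 1. The means were 2633 ± 573 and 1754 ± 227 (SD, n = 4 each), and edgeR gave -0.61 ± 0.18 (log2, SE; adjusted p = 0.0222). The decrease was unevenly shared between the replicate numbers, with log2 ratios of -0.99 and -0.91 in replicates 2 and 3 and of -0.34 and -0.024 in replicates 1 and 4. Without Control replicate 3, DZNep replicate 2 or DZNep replicate 3 the adjusted p-value was between 0.0561 and 0.0751.

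PHGDH (ENSG00000092621, chromosome 1 from 119648411 to 119744218), the dehydrogenase that opens the pathway, had the highest count of the 10 genes in every library. The Control libraries held 53249.8, 39204, 48285 and 57212 normalized counts and the DZNep libraries 47963, 30733, 38084 and 52797. The DZNep library was lower in all 4 replicate numbers, but the spread between replicates, 1.46-fold in the Control and 1.72-fold in the DZNep libraries, was wider than the difference of the means, 49488 ± 7768 and 42394 ± 9896 (SD, n = 4 each). edgeR gave -0.25 ± 0.21 (log2, SE) and an adjusted p of 0.380, and the block on replicate number gave 0.0566.

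**Figure D2:**
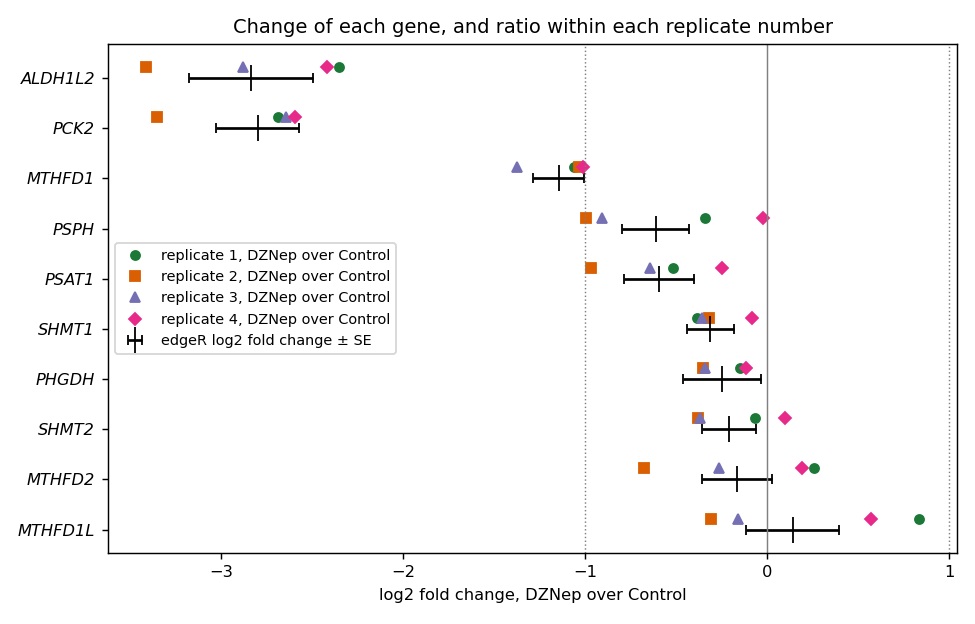
Log2 fold change of DZNep over Control for each gene, with the edgeR estimate and its standard error in black and the ratio within each replicate number as a coloured symbol (dotted lines at -1 and 1). ALDH1L2, PCK2 and MTHFD1 lie beyond -1, and for 7 of the 10 genes all 4 ratios are below 0. The share of all genes with this last pattern was not computed, and the numbers are not established as pairs.

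SHMT2, MTHFD2 and MTHFD1L, which form the mitochondrial route from serine to formate, did not pass the threshold over the 8 libraries. SHMT2 (ENSG00000182199, chromosome 12 from 57229573 to 57234935) had 19984, 21218, 22829 and 17683 normalized counts in the Control libraries and 19094, 16299.6, 17659 and 18931 in the DZNep libraries. The groups overlapped, and the difference was -0.21 ± 0.15 (SE) on the log2 scale (edgeR, adjusted p = 0.288). MTHFD2 (ENSG00000065911, chromosome 2 from 74186172 to 74217565), a dehydrogenase and cyclohydrolase, had 13312, 18468, 17680.1 and 11551 normalized counts in the Control libraries and 15914, 11551, 14727 and 13173 in the DZNep libraries. The lowest Control and the lowest DZNep library were at the same level, Control replicates 2 and 3 lay above all the rest, and the difference was -0.17 ± 0.19 (edgeR, log2, SE; adjusted p = 0.525).

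MTHFD1L (ENSG00000120254, chromosome 6 from 150865679 to 151101887), the mitochondrial formyltetrahydrofolate synthetase, varied widely in the Control. The Control libraries held 3782, 6678, 6863 and 3249.9 normalized counts, a 2.11-fold range with replicates 2 and 3 on top. The DZNep libraries held 6736, 5398, 6135 and 4818, all between the lowest and the highest Control library. edgeR gave 0.14 ± 0.25 (log2, SE; adjusted p = 0.692), and the sign turned without Control replicate 4, to -0.034.

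The direction in these genes differed between replicate numbers. For MTHFD1L, the log2 ratios of DZNep over Control were 0.83 and 0.57 in replicates 1 and 4 but -0.31 and -0.16 in replicates 2 and 3. For MTHFD2 they were 0.26 and 0.19 against -0.68 and -0.26. In fits restricted to the libraries numbered 1 and 4, the log2 fold change was 0.74 for MTHFD1L (adjusted p = 0.0154 from edgeR), 0.25 for MTHFD2 (0.371) and 0.031 for SHMT2 (0.918). In fits restricted to those numbered 2 and 3, it was -0.27 (0.138), -0.49 (0.0219) and -0.41 (0.0339). These restricted fits were chosen after the values had been seen, the difference between them was not tested, and the numbers also differ in the share of mitochondrially encoded counts given above, whose part in the result was not tested. ALDH1L2, PCK2 and MTHFD1 were past both thresholds in each of the 2 restricted fits, with log2 fold changes of -2.36, -2.62 and -1.02 for numbers 1 and 4 and of -3.12, -2.98 and -1.23 for numbers 2 and 3.

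Within the Control group, both libraries numbered 2 and 3 lay above both of those numbered 1 and 4 for 6 of the 10 genes (PSPH, SHMT2, MTHFD1, MTHFD2, MTHFD1L and ALDH1L2). They lay below them for PHGDH and PCK2, and PSAT1 and SHMT1 were mixed. Of all genes tested, 35.2% showed the former and 35.6% the latter arrangement. In the DZNep group, replicates 2 and 3 lay below replicates 1 and 4 for 5 genes (PHGDH, PSAT1, PSPH, SHMT2 and PCK2) and above them for 0 genes, against 27.8% and 27.5% of all genes. PSPH and SHMT2 thus had opposite orders in the 2 groups. The coefficient of variation in the Control was highest for ALDH1L2 (42.1%) and MTHFD1L (36.8%), and in the DZNep libraries it was 32.7% and 14.5%.

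Cytosolic and mitochondrial partners were compared by ratios of normalized counts within a library, in which the size factor cancels. The log2 ratio of MTHFD2 to MTHFD1 was -0.29, 0.10, 0.019 and -0.41 in Control replicates 1 to 4 and 1.03, 0.46, 1.13 and 0.79 in the DZNep replicates. It was higher in every DZNep library, by 1.00 on average, with means of -0.14 ± 0.24 and 0.85 ± 0.30 (SD, n = 4 each). The log2 ratio of MTHFD1L to MTHFD1 was -2.10, -1.37, -1.35 and -2.24 in the Control and -0.21, -0.64, -0.13 and -0.66 in the DZNep replicates, a difference of 1.35 without overlap. For each of these ratios, the two-sided exact permutation test gave p = 0.0286, which no comparison of 4 with 4 libraries can go below. After Benjamini-Hochberg adjustment over the 4 ratios computed, the exact permutation p-value was 0.0571, which does not pass the threshold. Both ratios were higher with DZNep in 4 of 4 replicate numbers. They share MTHFD1 as the denominator, so their 2 tests are not independent. Of the 3 genes, MTHFD1 passed the test on its own level, while MTHFD2 and MTHFD1L were lower in replicates 2 and 3 and higher in replicates 1 and 4.

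The ratio of SHMT2 to SHMT1 did not differ between the groups beyond the spread. Its log2 value was between 3.08 and 3.51 in the Control and between 3.15 and 3.50 in the DZNep libraries, a difference of 0.11 (two-sided exact permutation test, p = 0.4). The log2 ratio of PSAT1 to PHGDH was -0.62, -0.43, -0.57 and -0.89 in the Control and -0.98, -1.04, -0.87 and -1.02 in the DZNep libraries. The difference of -0.35 had p = 0.0571 in the two-sided exact permutation test, adjusted 0.0762, and the ratio was lower in 4 of 4 replicate numbers.

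**Figure D3:**
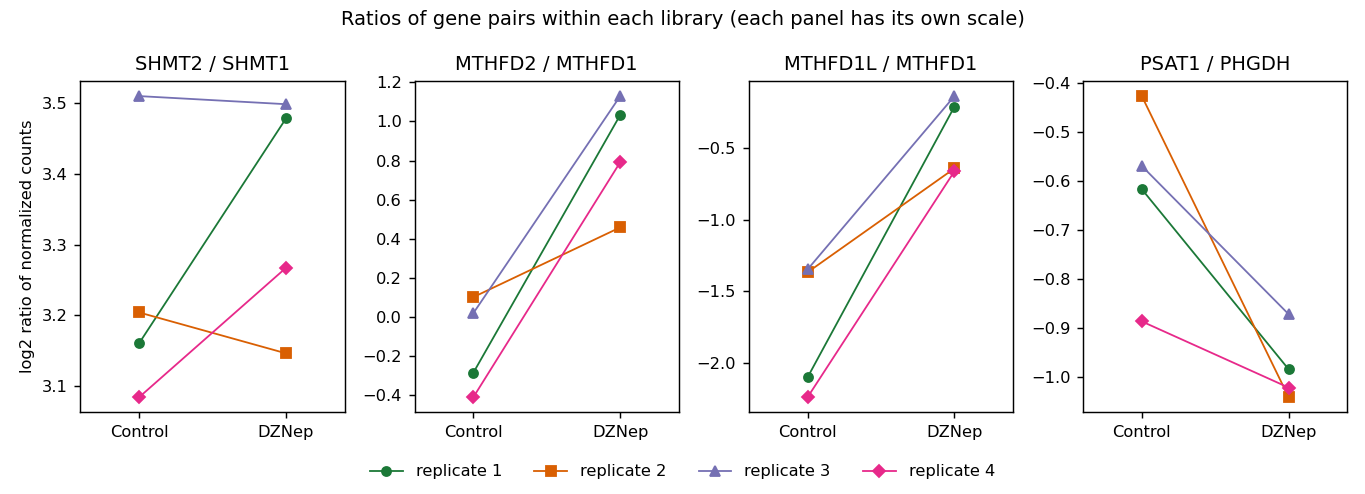
Log2 ratio of the normalized counts of 2 genes within each library, with a line joining libraries of the same replicate number (each panel has its own vertical scale). All 4 lines rise for MTHFD2 over MTHFD1 and for MTHFD1L over MTHFD1, all 4 drop for PSAT1 over PHGDH, and SHMT2 over SHMT1 is mixed.

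Levels of different genes were compared per kb of each gene's canonical transcript in GENCODE. All annotated exons of a gene can span more bases, 9187 against 1866 for PHGDH and 17357 against 3154 for MTHFD1. For PSAT1 both lengths were 2206. The order below thus depends on the length chosen, and levels with the other length were not computed. In the Control, PHGDH came first with 26521 ± 4163 normalized counts per kb, followed by PSAT1 with 14439 ± 1072, SHMT2 with 9471 ± 1006 and MTHFD1 with 5249.9 ± 305 (SD, n = 4 each). The libraries of each of these genes lay above all libraries of the next, down to PCK2 with 4002 ± 352. PCK2 and MTHFD2 overlapped, as did MTHFD1L and PSPH, and SHMT1 and ALDH1L2. ALDH1L2 was the lowest with 605 ± 255 per kb. In the DZNep libraries PHGDH (22719 ± 5303) and PSAT1 (9747 ± 2213) still came first, and PSAT1 then overlapped SHMT2 (8343 ± 603). PCK2 moved from rank 5 to rank 9, with 585 ± 162 per kb, and MTHFD1 from rank 4 to rank 5, with 2419 ± 219 per kb, a level that overlapped that of MTHFD2.

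**Figure D4:**
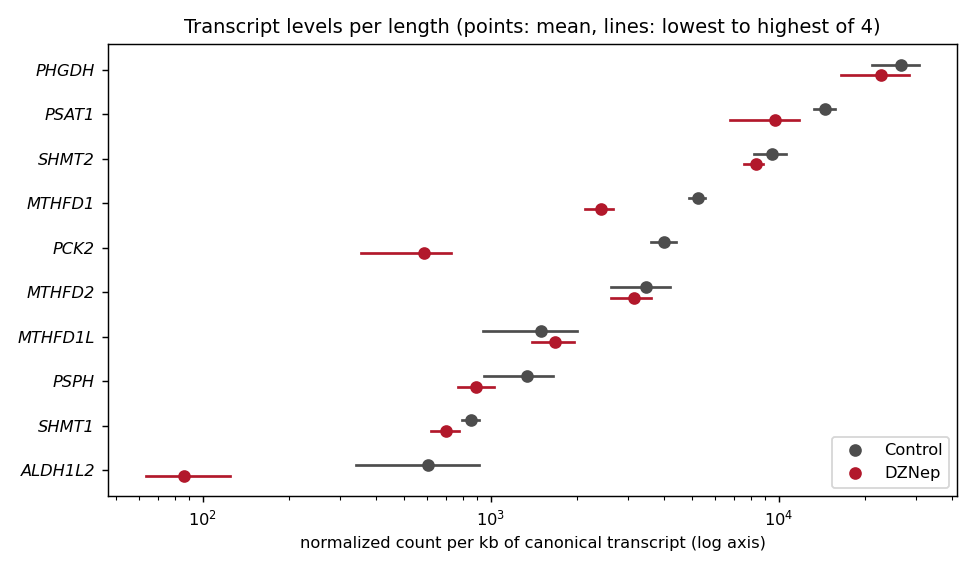
Normalized count per kb of canonical transcript (log axis) for each gene in Control (grey) and DZNep (red) libraries, with points for the mean and lines from the lowest to the highest of 4 libraries. The red points of PCK2, ALDH1L2, MTHFD1, PSAT1, SHMT1 and PSPH lie below the grey lines, and of these genes only PSPH has lines that overlap. The levels span from 86.0 per kb (ALDH1L2 with DZNep) to 26521 per kb (PHGDH in the Control).

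Whether reads were counted by strand is not stated, so counts where exons lie opposite those of another gene could be affected. MTHFD1 exons share 1556 bases with ENSG00000272909, which had 76.6 normalized counts in Control libraries and 19.4 in DZNep libraries on average. They also share 178 bases with ZBTB25 (702 and 385). MTHFD2 exons share 1324 bases with SLC4A5 (65.7 and 73.2), and those of SHMT1 share 197 bases with SMCR8 (1199 and 1307). ALDH1L2 shares 131 bases with WASHC4 (1743 and 1075) and 145 with NOPCHAP1 (876 and 571), where ALDH1L2 itself had 4493 and 639. How far these overlaps alter the count of ALDH1L2 was not tested. Pseudogenes named for PSAT1, PSPH, SHMT1, MTHFD1 and MTHFD2 had at most 8.59 normalized counts in any library (MTHFD1P1).

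Promoter windows from RefSeq (GRCh38.p14, 250 bases before to 50 after a start) were matched for 7 of the 10 genes, and for PSPH, SHMT2 and ALDH1L2 none was matched. They were searched on both strands for TGATGNAA, the core of the C/EBP-ATF response element that ATF4 binds, and for CACGTG, the E-box bound by MYC and USF proteins, motifs whose matches in these windows do not overlap. The former was in 1 of the 7 genes (MTHFD1L) and in 4.46% of the 27305 genes in the table, and the latter was in 2 (MTHFD1 and MTHFD1L) and in 8.77%. All matches found in the 7 genes are shown, each once. The match is in capitals in each 30-base stretch of the plus strand, 5′ to 3′:
MTHFD1L, chr6:150866346-150866375: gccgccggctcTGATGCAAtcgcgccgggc
MTHFD1L, chr6:150866320-150866349: cacgcccggctcCACGTGcgcagccggccg
MTHFD1, chr14:64388326-64388355: ccagtccctaagCACGTGggttgggttgtc
These letters describe the windows only. The 6 genes without TGATGNAA were PHGDH, PSAT1, SHMT1, MTHFD1, MTHFD2 and PCK2. Variants of the motifs and sequence outside the windows were not searched, and no link between a motif and a change was tested.

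For 5 genes, the profiles most like theirs over the 8 libraries were sought among 10704 expressed genes, by the root mean square difference of log2(normalized count + 1) centred on each gene. PARVB was nearest to PCK2 (0.095 on the log2 scale), itself at -2.71 with DZNep, followed by GALNT12 (0.19) and B9D1 (0.20), where the median gene was at 1.49. For PHGDH these were GABARAP (0.059), YWHAH (0.066) and NPRL2 (0.072), and for PSAT1 they were GRINA (0.079), HEBP1 (0.093) and the glutamine and neutral amino acid transporter SLC1A5 (0.093). MRPS10, ORC3 and TRIM16L were nearest to SHMT2 (0.063 to 0.070), and PPP3CB, MYO1D and XPNPEP1 to MTHFD2 (0.070 to 0.090). Among the 10 genes themselves, the closest pairs were SHMT2 with MTHFD2 (0.15) and SHMT2 with SHMT1 (0.16), and ALDH1L2 and PCK2 were 0.56 apart but at least 0.92 from each of the other 8.

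Other genes around the pathway were counted on lists that were chosen with earlier results of these data known. The counts stand beside shares of 13.5% lower and 10.6% higher among all genes past both thresholds. By the adjusted p-value alone, these shares were 21.8% and 19.1%. The counts on the lists were not tested as groups. Because of how the lists were chosen, an excess over these shares is not evidence of a group effect. Of 18 other folate genes tested, 4 were lower and 1 was higher past both thresholds, and 8 and 3 passed the threshold on the adjusted p-value, with a median log2 fold change of -0.48. DMGDH, the mitochondrial dimethylglycine dehydrogenase, went from a mean of 59.8 ± 17.6 to one of 11.6 ± 2.90 (normalized counts, SD, n = 4 each, log2 fold change -2.38). MTFMT, the mitochondrial methionyl-tRNA formyltransferase, which uses the formyl folate that ALDH1L2 also consumes, fell from 757 ± 103 to 255 ± 26.9 (-1.59). The folate receptor FOLR1 was higher (1.77, adjusted p = 0.0247 from edgeR), but the adjusted p-value was over 0.05 without Control replicate 3 or without DZNep replicate 1, 3 or 4.

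Carriers and relatives of the 10 genes are found on the same list. SLC25A32, which brings folate into the mitochondrion, fell by 0.71 on the log2 scale, and the plasma membrane folate carrier SLC19A1 by 0.83. MTHFD2L, a relative of MTHFD2, rose from 541 ± 106 to 1074 ± 84.5 (normalized counts, n = 4 each, SD), or 0.96 on the log2 scale (edgeR, adjusted p = 0.00141), and the groups did not overlap. Like GCSH, SFXN3, ATIC and ADSS2, these 3 were picked for mention once values were known.

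Of 3 glycine cleavage genes tested of 4 listed, 0 passed both thresholds, and GCSH, the lipoyl carrier of that system, was lower at the threshold on the adjusted p-value (-0.92). Of 13 tested genes for serine and glycine transport, 1 was lower and 1 was higher. SLC1A4, a plasma membrane serine transporter, fell from 1972 ± 615 to 424 ± 94.1 normalized counts (-2.24), and SLC38A4 rose from 17.0 ± 7.38 to 44.8 ± 9.45 (1.35, SD, n = 4 each). The mitochondrial carrier of the sideroflexin family SFXN3 rose by less than the fold threshold (0.68, adjusted p = 0.0126 in edgeR). Of 10 genes that use serine, PTDSS2 and SRR were lower and 0 were higher. PTDSS2, a phosphatidylserine synthase, fell from 2617 ± 227 to 491 ± 42.0 (-2.44), and SRR, the serine racemase, fell from 886 ± 151 to 333 ± 66.0 (-1.44).

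Purine synthesis, which takes formyl groups made through MTHFD1, had 4 of 13 genes lower and 0 higher, with a median of -0.58. ADSS1, an adenylosuccinate synthase, went from 322 ± 80.8 to 32.0 ± 7.95 normalized counts (-3.37), IMPDH2 from 12115 ± 830.0 to 5015 ± 255 (-1.30) and PAICS from 20171 ± 809 to 9251 ± 716 (-1.15, SD, n = 4 each). At the threshold on the adjusted p-value 7 of the 13 were lower, among them ATIC (-0.75), a formyl transfer step. Another was ADSS2, the other adenylosuccinate synthase on the list, which did not pass the fold threshold. The list for lower glycolysis and phosphoenolpyruvate formation also holds FBP1, which acts in neither. On this list 3 of 10 genes were higher and 0 lower. By the adjusted p-value 5 were higher and 0 lower, with log2 fold changes from -0.19 to 1.82 over the 10 genes. ENO2, an enolase, rose from 571 ± 49.7 to 1390.4 ± 207 (1.26). PCK1, the cytosolic counterpart of PCK2, was higher by 1.82 (edgeR, adjusted p = 0.0467), without overlap between the groups. Its DZNep libraries held 138, 112, 792 and 111 normalized counts, and without DZNep replicate 3 the value was 0.56 (adjusted p = 0.184 in edgeR). The call was also lost without any 1 of the Control libraries, with edgeR's adjusted p between 0.0654 and 0.0925. FBP1, the gluconeogenic bisphosphatase, had 18.3 ± 3.77 and 42.4 ± 18.5 (1.18), a call lost without Control replicate 1, 2 or 3 or DZNep replicate 2.

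**Figure D5:**
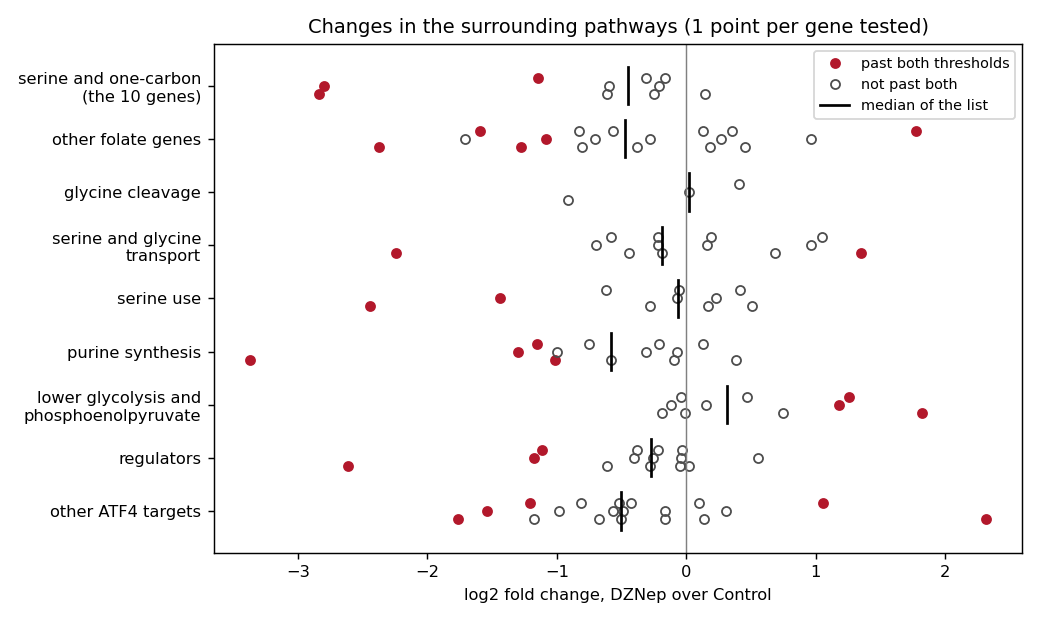
Log2 fold change of DZNep over Control for each tested gene of the 10 and of 8 surrounding lists, with filled points for genes past both thresholds and a bar at each list's median. The medians lie between -0.58 (purine synthesis) and 0.31 (lower glycolysis and phosphoenolpyruvate), and the points of ALDH1L2 and PCK2 are the lowest of the 10 genes.

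Among 14 genes of regulators that act upstream, 3 were lower and 0 were higher. ATF4 had 34777, 32265, 31546 and 54129.9 normalized counts in the Control libraries and 41425, 29845, 34889.9 and 45962 in the DZNep libraries, a difference of -0.034 ± 0.23 (log2, SE; adjusted p = 0.920 in edgeR). The sign of this value turned with library totals as the scaling (0.061), and Control replicate 4 stood above the rest. These values are of the ATF4 transcript, and the level and activity of the ATF4 protein were not examined here. DDIT3, which encodes CHOP, fell from 1112 ± 422 to 185 ± 41.1 (-2.61), and MYCN from 38.8 ± 8.93 to 18.2 ± 0.76 (-1.11, SD, n = 4 each). CEBPB was lower (-1.18, adjusted p = 0.0304 from edgeR), with an adjusted p-value between 0.0512 and 0.0887 without Control replicate 1 or 4 or DZNep replicate 1, 2 or 3. Of 19 other known ATF4 targets, 3 were lower and 2 were higher past both thresholds, shares close to those of all genes by that rule. The pseudokinase TRIB3 (-1.76) and the tRNA exporter XPOT (-1.54) fell, and the hormone FGF21 rose from 66.6 ± 46.2 to 332 ± 127 (2.31, SD, n = 4 each). At the threshold on the adjusted p-value 8 of the 19 were lower and 2 higher, where 21.8% of all genes were lower and 19.1% higher. The median log2 fold change of the 19 was -0.51, against -0.026 over all genes.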

How the data were processed

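RNA of 8 HEK293T samples, 4 Control and 4 DZNep, was sequenced as paired reads. Per the labels and methods, the authors used Trimmomatic 0.36 for trimming, STAR 2.5.2b for alignment (GRCh38), and featureCounts of Subread 1.5.2, restricted to unique reads in exons, for counting. The annotation release and strandedness are not given in the sources used here. The deposited counts cover 57500 genes without normalization. The second deposited table holds a signal, each count divided by 1 size factor per library, for the 19118 genes with over 80 counts in all. It was checked that the ratio is constant within a library.

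Differential expression was computed in R 4.3.3 with edgeR 4.0.16 (TMM, filterByExpr, quasi-likelihood test, Benjamini-Hochberg adjustment over 19171 genes), at the study's thresholds. The study used the Wald test of DESeq2, run here as an alternative with DESeq2 1.42.0, as was limma 3.58.1. The script was tested on simulated data. Pairs of libraries within a group differed by more than sampling noise (chi-square per degree of freedom at least 23.9). Same-numbered libraries deviated together from their group means to an unequal degree (correlations over genes of 0.13, 0.47, 0.41 and 0.65, all above 0.1). The highest correlation between different numbers was 0.50, above the values of numbers 1, 2 and 3, so these correlations cannot establish pairs. Numbers were still used as pairs in the block, the log2 ratios by number and the sign-flip test, whose results rest on that assumption. Coordinates and lengths come from GENCODE v44 on GRCh38, which may differ from the annotation used for counting.

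Precision rests on library totals of 25043058 to 44902779 counts. Named genes are the 10 members, up to 3 called genes with the largest changes per list, ATF4, and the 3 nearest profiles of 5 members. MTHFD2L, SLC25A32, SLC19A1, GCSH, SFXN3, ATIC and ADSS2, the markers and the overlapping genes lie outside that rule and were named after their values were seen. The members and lists were chosen with earlier results of these data known. Other alternatives were normalizations, low-count filters, the replicate block, each library left out and other thresholds, and the fits restricted to 2 replicate numbers were added after seeing the data.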

Additional observations from a re-analysis of the deposited data

Results flagged for a closer look

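Of 72 groups of 4 libraries examined, 4 held a library far from the other 3 by Dixon's criterion, and chance alone flags about 1 in 20. Control replicate 1 had 25043058 counts, where the other Control libraries had 39505214 to 41247898. PCK1 stood at 792 normalized counts in DZNep replicate 3 and at 111 to 138 in the other DZNep libraries. ADSS1 was at 43.9 in DZNep replicate 4 and at 27.6 to 28.2 in the others, all far below the Control. ATF4 was at 54129.9 in Control replicate 4 and at 31546 to 34777 in the other Control libraries. None of the 10 serine and one-carbon genes was flagged in either group.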

How the results depend on the processing

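The calls of ALDH1L2, PCK2 and MTHFD1 and the count of 3 lower and 0 higher members past both thresholds held under each alternative that kept both thresholds. By the adjusted p-value alone, 5 members, and 3656 genes higher and 4171 lower in all, passed, and with at least 10 reads in every library 1141 genes were higher. PSAT1 had -0.57 (adjusted p = 0.0626) when every gene with a read was kept, and PSPH -0.56 (0.0667) with library totals as scaling. With the replicate number as a block, SHMT1 passed (-0.31), the ratios of MTHFD2 and MTHFD1L to MTHFD1 kept differences of 1.00 and 1.35 but gave p = 0.125 in an exact sign-flip permutation test, the smallest that 4 pairs allow, and no other member's call changed. The fits restricted to 2 replicate numbers were not planned and were chosen after the values had been seen. In the fits on replicate numbers 1 and 4, PSAT1 (-0.37) and PSPH (-0.18) did not pass, MTHFD1L passed (0.74), and SHMT2 (0.031) and MTHFD2 (0.25) turned sign. On numbers 2 and 3, SHMT2 (-0.41) and MTHFD2 (-0.49) passed and MTHFD1L (-0.27) turned sign. ATF4 turned sign with library totals (0.061), with every gene with a read (0.0022), with DESeq2 (0.00032), with limma (0.012), and without Control replicate 4 or DZNep replicate 2 or 3 (range with each library left out -0.13 to 0.18). The cause was not tested.

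With each library left out, the log2 fold changes ranged from -0.37 to -0.12 for PHGDH, -0.69 to -0.45 for PSAT1, -0.75 to -0.50 for PSPH, -0.36 to -0.25 for SHMT1, -0.28 to -0.16 for SHMT2, -1.19 to -1.08 for MTHFD1, -0.29 to -0.066 for MTHFD2, -0.034 to 0.31 for MTHFD1L, -3.07 to -2.57 for ALDH1L2 and -2.92 to -2.61 for PCK2. The genes called over the whole table ranged from 1936 to 2383 higher and from 2322 to 2993 lower. The lowest count of any of the 10 genes in a library was 421 (ALDH1L2).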
